A study of Rattus norvegicus with 9 samples.

Results

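The genes described here encode the liver enzymes that take amino acids apart and dispose of their nitrogen: the urea cycle, glutamine and glutamate handling, and the breakdown of tyrosine, tryptophan, serine, glyoxylate, histidine, methionine, the branched-chain amino acids and lysine. They were taken by gene symbol from a list of 41, of which 39 were rows of both deposited count tables and were read here out of 15565 genes in both. Of these 39, 38 had enough reads to be tested and Gnmt had not. Cth and Prodh were not analysed here.

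Liver RNA of male SD rats was sequenced in 9 libraries, 3 in each of 3 groups. The SCL-treated group received Smilax china L., a plant that the labels shorten to SCL, and its tissue is labelled fatty liver; no diet, dose or time is given for it. The design text of the series writes SCS where the labels write SCL, and both are taken here to mean this group. The high-fat diet group is the disease model, fed that diet for 8 weeks, and its tissue is likewise labelled fatty liver. The normal diet group is the control. All 9 libraries share sex, strain and tissue, and the age of the rats is not given in the sources used here. No label says that libraries of a group came from separate rats. The title of high-fat diet replicate 1 carries the code M2 where those of replicates 2 and 3 carry M, and the labels do not say what sets it apart. The spread behind every p-value is therefore that among libraries, and may be technical.

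Amino acids that are not built into protein lose their nitrogen mainly in hepatocytes. Aminotransferases collect amino groups on glutamate and aspartate, and periportal hepatocytes, which lie nearest the incoming blood, turn the nitrogen into urea. Ammonia that escapes the urea cycle is caught as glutamine by glutamine synthetase in the hepatocytes around the central vein. The carbon skeletons feed glucose production, ketone bodies or the citric acid cycle, and the methionine branch supplies the methyl donor S-adenosylmethionine.

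Total counts ran from 12413774 to 15521648 reads. The mitochondrial genome gave 10.97%, 49.0% and 7.04% of reads in SCL-treated replicates 1, 2 and 3, against 4.90%, 18.8% and 44.1% in the high-fat diet replicates and 4.63%, 3.85% and 11.2% in the normal diet replicates. SCL-treated replicate 2 and high-fat diet replicate 3 thus stood apart from the other 7 libraries. Hepatocyte markers were detected in every library, all 12 of 12. Of the kidney markers, Kap had 1 read in 1 library. Slc12a3 had 13, 0 and 5 reads with SCL, 42, 5 and 33 on the high-fat diet and 4, 7 and 7 on the normal diet. It was the only kidney marker with enough reads to be tested. Its log2 fold change for high-fat against normal diet was 2.22 (unadjusted edgeR p under 0.05, adjusted p = 0.911). The summed CPM of the 12 hepatocyte markers (CPM is the count scaled to a common library size by TMM) was 174559, 85685 and 256902 in the SCL-treated replicates, 158252, 167580 and 82042 on the high-fat diet and 198938, 165158 and 207875 on the normal diet. Alb had the most reads of the 12 in every library, so the sum rests largely on Alb. The sum was lowest in SCL-treated replicate 2 and high-fat diet replicate 3. Erythroid markers, 4 tested genes, summed to 938, 1226 and 361 CPM with SCL, 233, 515 and 1205 CPM on the high-fat diet and 331, 134 and 420.0 CPM on the normal diet, the highest sums being in those libraries. In bulk tissue, fewer cells of a type and less RNA per cell cannot be told apart.

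The 39 genes together took 1.996%, 1.28% and 2.14% of reads in SCL-treated replicates 1, 2 and 3, against 2.44%, 1.71% and 1.06% on the high-fat diet and 2.17%, 2.99% and 1.89% on the normal diet. Of the reads outside the mitochondrial genome they took 2.24%, 2.52% and 2.31% with SCL, 2.57%, 2.11% and 1.89% on the high-fat diet and 2.27%, 3.11% and 2.13% on the normal diet. SCL-treated replicate 2 was the lowest of its group by the first share and the highest by the second, while high-fat diet replicate 3 was the lowest by both. Levels of different genes were compared per transcript length, on the authors' FPKM values, whose denominator is all reads of a library, mitochondrial ones included. Hpd, which oxidises the keto acid of tyrosine, averaged 1138 FPKM over the 9 libraries and Bhmt, which remethylates homocysteine with betaine, averaged 1107 FPKM. Ass1 and Mat1a followed at 694 and 651 FPKM. These 4 were the most abundant members in every group, except that Arg1 stood above Mat1a with SCL (556 ± 115 FPKM for Arg1 and 525.5 ± 29.0 FPKM for Mat1a; SD, n = 3).

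The most abundant member of each role gives the scale of that branch. Glud1, glutamate dehydrogenase, averaged 257 FPKM over the 9 libraries, Tdo2, which opens the ring of tryptophan, 353 FPKM and Ftcd, of histidine breakdown, 241 FPKM. Oat, ornithine aminotransferase, averaged 120.4 FPKM and Bckdha, a subunit of the branched-chain keto acid dehydrogenase, 82.5 FPKM. On the normal diet alone Aass, at 95.1 ± 66.2 FPKM, stood above Bckdha, at 85.3 ± 11.2 FPKM (SD, n = 3). Within the urea cycle the order by mean FPKM was Ass1, Arg1, Cps1, Asl, Otc and Nags, from 694 down to 27.9 FPKM over the 9 libraries; with SCL alone Asl (358 FPKM) stood above Cps1 (292 FPKM). Acmsd, which draws tryptophan breakdown away from NAD synthesis, was the lowest tested member at 5.43 FPKM. Gnmt, a methyltransferase that uses S-adenosylmethionine, had 1 read in high-fat diet replicate 1 and in normal diet replicates 1 and 3 and 0 in the other 6 libraries. A count of 0 allows at most 0.242 CPM in the shallowest library. Gnmt is known as an abundant enzyme of rat liver, so these counts are not read as its level, and how its gene was counted was not tested.

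**Figure D1:**
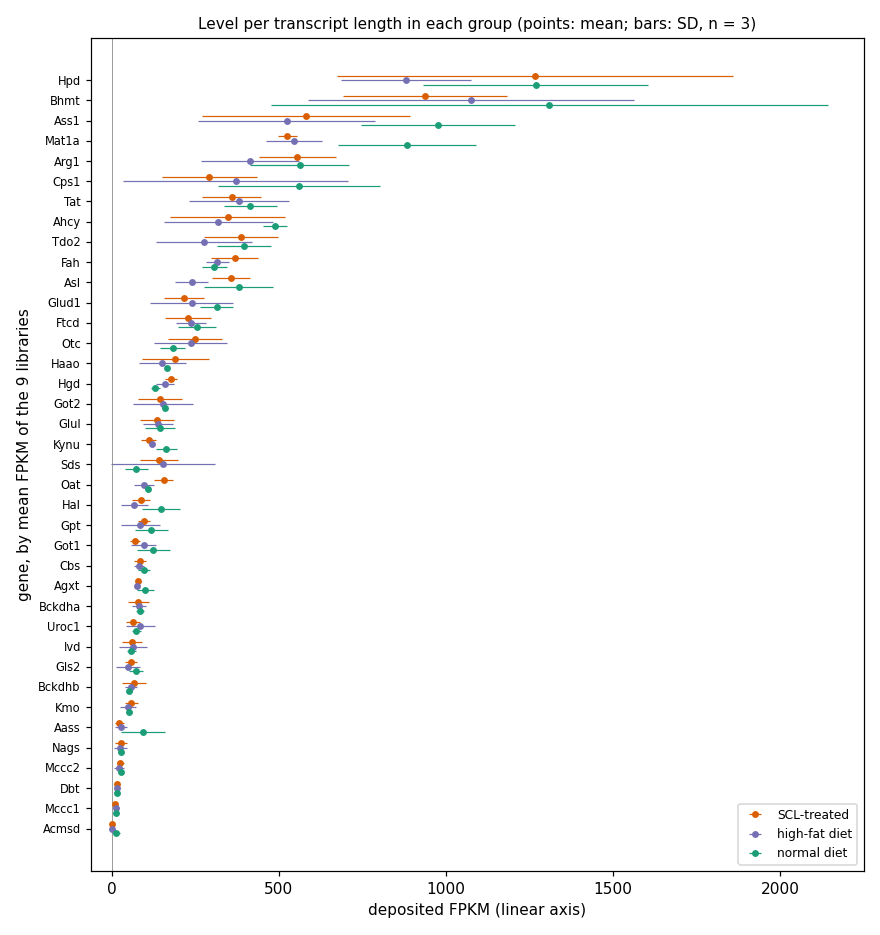
Deposited FPKM (x axis, linear) of the 38 tested genes (y axis, ordered by their mean over 9 libraries), with the mean as a point and the SD over 3 libraries as a bar for SCL-treated, high-fat diet and normal diet livers. Hpd and Bhmt lead at 1138 and 1107 FPKM on average, and Acmsd is lowest at 5.43 FPKM.

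**Figure D2:**
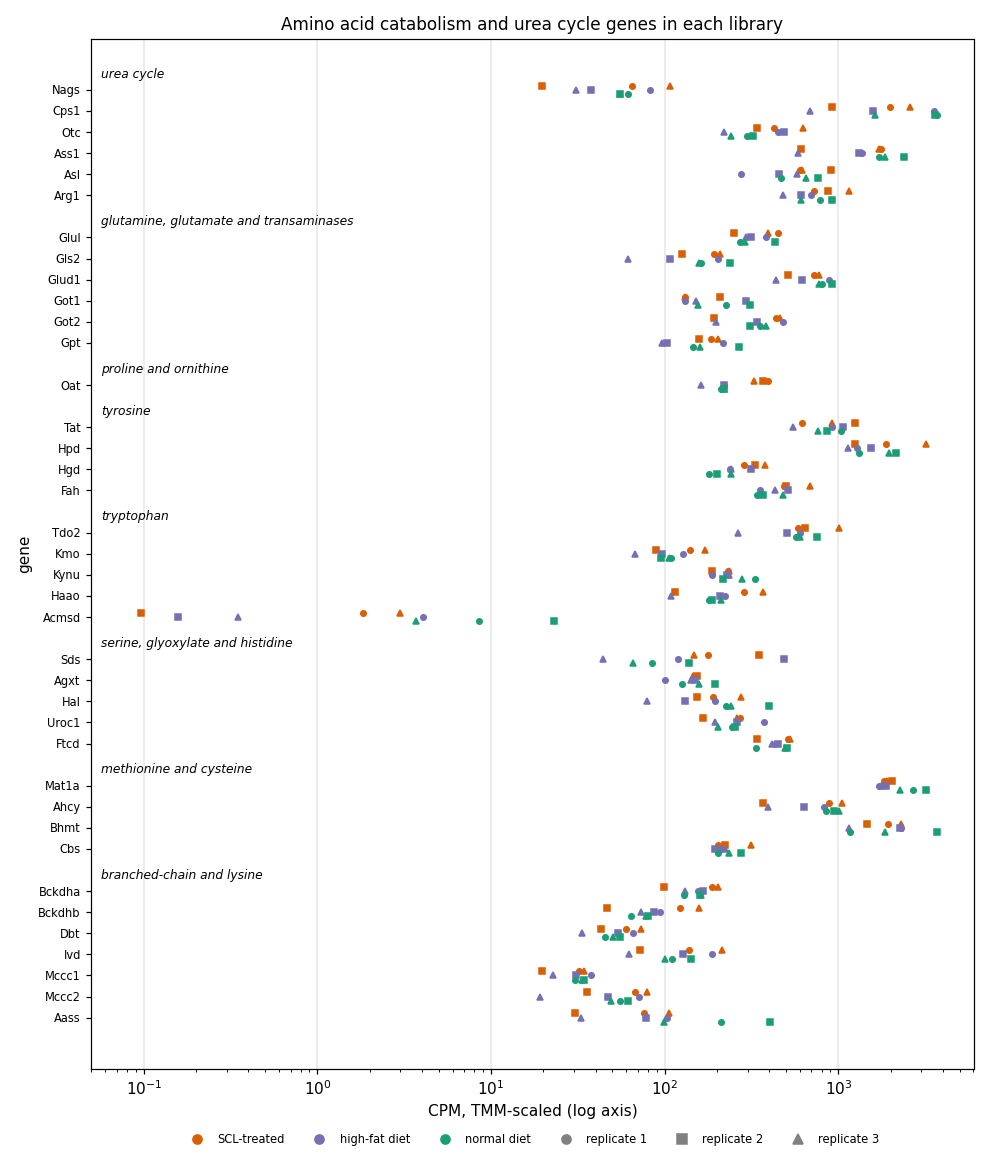
TMM-scaled CPM (x axis, log scale) of the 38 tested genes (y axis, by role) in each of the 9 libraries, with colour for the group and marker shape for the replicate. Oat separates the SCL-treated libraries from the rest, and Acmsd spreads 30.7-fold within the SCL-treated group.

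The first comparison asked how the high-fat diet group differed from the normal diet group. None of the 38 members passed the threshold, an edgeR quasi-likelihood adjusted p under 0.05 over 12041 genes, which 0.0083% of genes tested passed. Members had a median log2 fold change of -0.21, beside 0.03 for all genes tested. Of the members 29 lay below 0 and 9 above, where 47.2% of all genes tested lay below and 52.8% above. Without high-fat diet replicate 3 the members were split 19 and 19, with a median of -0.0030. An unadjusted edgeR p under 0.05 was met by 3 members, all lower on the high-fat diet. Of all genes tested 4.32% did so, 1.55% lower and 2.77% higher. DESeq2 and limma-voom also called 0 members. In DESeq2 an unadjusted p under 0.05 was met by 4 members, all lower. Of all genes tested 5.9% met it, 470 being higher and 241 lower. In limma-voom 11 members met it, 1 higher and 10 lower, where 30% of all genes tested did, 1845 higher and 1773 lower. The limma-voom count was thus near the background only with both directions pooled, since the members were mostly lower and the background was not. Without high-fat diet replicate 1 the median was -0.31, and 6 members had an unadjusted edgeR p under 0.05, where 20.6% of genes tested did.

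The 3 members with the smallest p were Aass, Hal and Acmsd. Aass, the bifunctional enzyme of the first steps of lysine breakdown, had 103, 77.9 and 33.1 CPM in the high-fat diet replicates, against 211, 405 and 99.2 CPM in the normal diet replicates. High-fat diet replicate 1 lay above normal diet replicate 3, so the groups overlapped. The log2 fold change was -1.74 (SE 0.61, n = 3 against 3, edgeR adjusted p = 0.911). Hal, the ammonia lyase that starts histidine breakdown, had 196, 131 and 79.6 CPM on the high-fat diet and 224, 397 and 242 CPM on the normal diet, with no overlap. Its log2 fold change was -1.09 (SE 0.40, edgeR adjusted p = 0.911). Acmsd rested on few reads, with 78, 2 and 4 counts on the high-fat diet and 139, 401 and 51 on the normal diet, and stood at -2.88 (SE 1.15, edgeR adjusted p = 0.911).

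Among urea cycle genes 5 of 6 lay below 0, and their median was -0.46. Ass1, which joins citrulline and aspartate, had 1370.0, 1319 and 588 CPM on the high-fat diet and 1707, 2402 and 1861 CPM on the normal diet, without overlap (log2 fold change -0.87, SE 0.48, edgeR adjusted p = 0.911). Cps1, the mitochondrial entry enzyme of the cycle, had 3541, 1579 and 689 CPM on the high-fat diet and 3693, 3597 and 1630.4 CPM on the normal diet. High-fat diet replicate 1 lay near the 2 high normal diet libraries, and the log2 fold change was -0.62 (SE 0.62). Otc, which makes citrulline, was the member above 0, with 451, 485 and 219.5 CPM on the high-fat diet against 298, 324 and 242 CPM on the normal diet (0.42, SE 0.37). Periportal markers, 7 genes of which none is a member, summed to 6297, 6800 and 5457 CPM on the high-fat diet, below the 7815, 8817 and 7216 CPM of the normal diet in every library. Gene by gene, 4 of the 7 lay below 0 and 3 above, between -1.14 and 0.84, with 1 in each direction at an unadjusted p under 0.05. Their part in the urea cycle values was not tested.

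All 4 tested methionine and homocysteine genes had negative values, and their median was -0.41. Mat1a, the liver S-adenosylmethionine synthetase, had 1720.3, 1881 and 1752 CPM on the high-fat diet, against 2687, 3196 and 2269.6 CPM on the normal diet. The high-fat diet libraries lay close together and below each normal diet library. The log2 fold change was -0.61 (SE 0.32, edgeR adjusted p = 0.911). Ahcy, which hydrolyses S-adenosylhomocysteine, did not overlap either, with 823, 632 and 394 CPM on the high-fat diet and 849, 942 and 1009 CPM on the normal diet (-0.60, SE 0.42). Bhmt (-0.23, SE 0.48) and Cbs, the first enzyme from homocysteine to cysteine (-0.18, SE 0.28), overlapped.

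Among the other branches, Sds, serine dehydratase, held the highest value of any member in this comparison. It had 119, 488 and 43.9 CPM on the high-fat diet and 84.9, 139 and 65.4 CPM on the normal diet (1.17, SE 0.72). High-fat diet replicate 2 was the high library and replicate 3 the lowest of all 6, and without replicate 2 the value was -0.25. Hgd, the homogentisate dioxygenase of tyrosine breakdown, had 239, 315 and 242 CPM on the high-fat diet against 179, 199 and 240.0 CPM on the normal diet (0.36, SE 0.27). The 6 glutamine, glutamate and transaminase genes had a median of -0.31, with Glul, glutamine synthetase, at -0.0085 (SE 0.32) and Gls2, the liver glutaminase, at -0.59 (SE 0.42). Glud1 had 878, 613 and 440.3 CPM on the high-fat diet and 807, 923 and 771 CPM on the normal diet (-0.37, SE 0.34). The 5 tryptophan genes had a median of -0.34 and the 7 branched-chain and lysine genes one of 0.011. In all, 4 members (Hal, Mat1a, Ass1 and Ahcy) did not overlap between the groups, all lower on the high-fat diet. Of all genes tested 10.6% did not overlap, 5.27% lower and 5.33% higher.

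**Figure D3:**
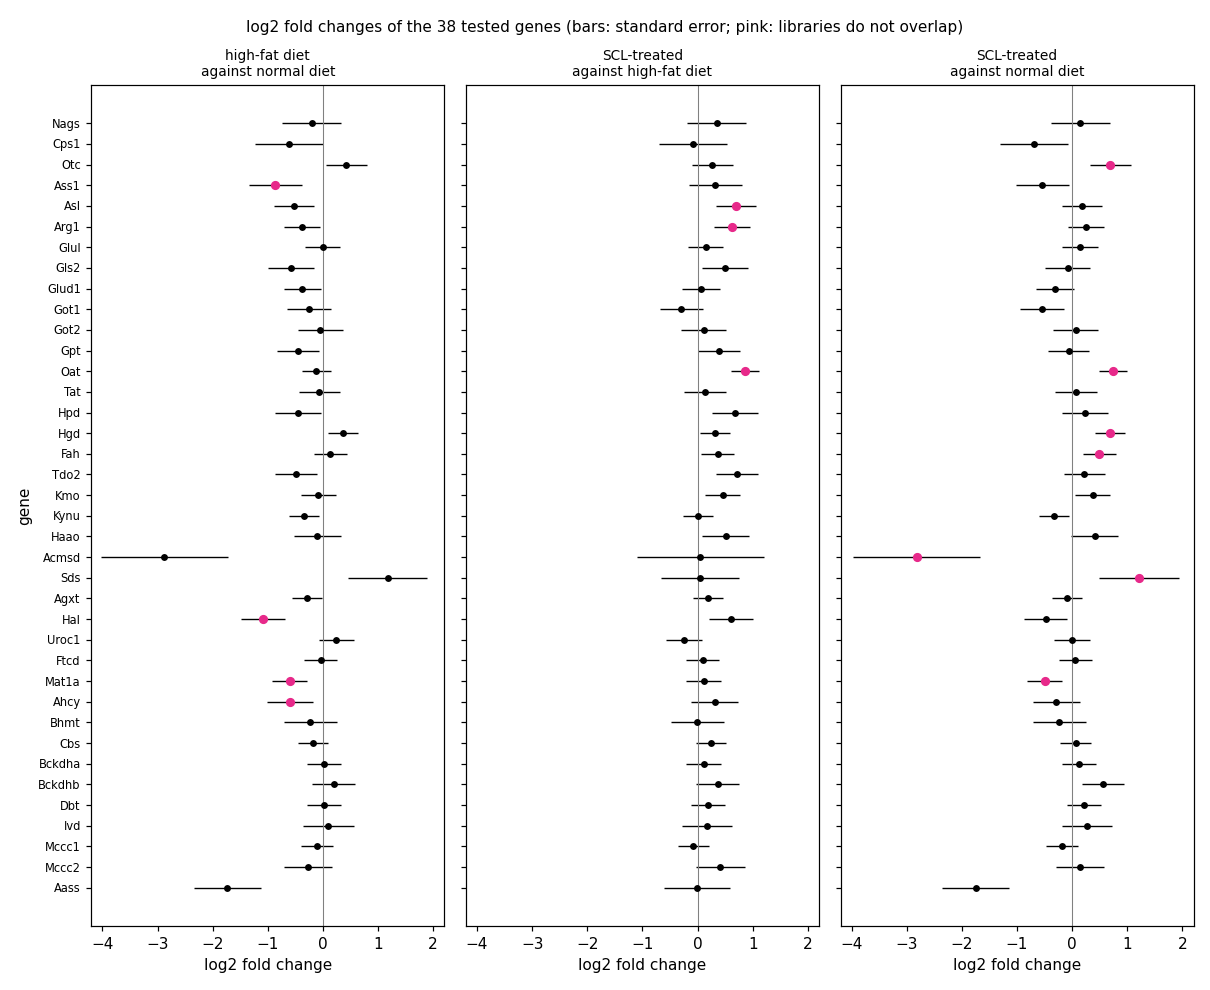
Log2 fold change (x axis) with its standard error (bar) for each of the 38 tested genes (y axis) in the 3 comparisons, the group named first being the numerator. Pink points mark genes whose 3 libraries in each group do not overlap (4, 3 and 7 genes); none of the 114 points passed the edgeR threshold.

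The second comparison asked how SCL-treated livers differed from high-fat diet livers. No member passed edgeR, as no gene of 12041 did (0%). The median over members was 0.22, beside -0.03 for all genes tested, and 32 members lay above 0 and 6 below, where 46.7% of all genes tested lay above and 53.3% below. With library totals as the only scaling the median was 0.06, beside -0.19 for all genes tested, and 20 members lay above 0. Of the members only Oat had an unadjusted edgeR p under 0.05, upward, as did 0.615% of genes tested upward and 1.34% downward (1.95% in all). DESeq2 and limma-voom called 0 members as well. An unadjusted p under 0.05 was met by 3 members in DESeq2, all higher with SCL, where 2.8% of all genes tested met it and 0.93% were higher. It was met by 9 members in limma-voom, all higher, where 7.69% of all genes tested met it and 3.19% were higher. Without high-fat diet replicate 1 the median was 0.44, and 6 members had an unadjusted edgeR p under 0.05, where 4.51% of genes tested did. The SCL-treated comparisons use the same high-fat or normal diet libraries as the first, so their values are not independent of it.

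Oat moves the amino group of ornithine to form glutamate, and is found with Glul in the hepatocytes around the central vein. It had 394, 369 and 327 CPM in SCL-treated replicates 1, 2 and 3, against 219, 221 and 161 CPM on the high-fat diet. Every SCL-treated library lay above every library of the other groups, since the normal diet libraries had 211, 220.1 and 219.8 CPM. Against the high-fat diet the log2 fold change was 0.86 (SE 0.26, edgeR adjusted p = 1.00), and against the normal diet it was 0.74 (SE 0.26, edgeR adjusted p = 0.665). With high-fat diet replicate 3 and SCL-treated replicate 2 left out, the values were 0.71 and 0.72. Pericentral markers, 10 genes of which none is a member and in which Cyp2e1 has the most reads, summed to 5794, 5380.3 and 7249 CPM with SCL, 5358, 4962 and 3422 CPM on the high-fat diet and 3483, 3470.4 and 3992 CPM on the normal diet. Their sums were highest in the SCL-treated libraries too. Gene by gene against the high-fat diet, 5 of the 10 lay above 0 and 5 below, with a median of 0.0083, and 1 had an unadjusted p under 0.05, lower. Against the normal diet 6 lay above 0 and 4 below, with a median of 0.47. Glul had 450, 250 and 395 CPM with SCL, 383, 313 and 294 CPM on the high-fat diet and 273, 431 and 291 CPM on the normal diet. Its groups overlapped, and it stood at 0.14 (SE 0.32) against each diet. The part of the pericentral markers in the Oat values was not tested.

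Urea cycle genes had a median of 0.34 against the high-fat diet, with 5 of 6 above 0. Asl, which splits argininosuccinate into arginine and fumarate, had 602, 902 and 620.3 CPM with SCL and 276, 456 and 574 CPM on the high-fat diet, without overlap (0.70, SE 0.36, edgeR adjusted p = 1.00). Arg1, which releases urea from arginine, had 725, 871 and 1158 CPM with SCL and 696, 608 and 478 CPM on the high-fat diet, also without overlap (0.63, SE 0.33, edgeR adjusted p = 1.00). Cps1 had 1985, 918 and 2587 CPM with SCL, within the range of the high-fat diet libraries, and stood at -0.08 (SE 0.61). Oat, Asl and Arg1 were the 3 members without overlap, all higher. Of all genes tested 4.78% did not overlap, 2.36% higher and 2.43% lower.

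All 4 tyrosine genes and all 5 tryptophan genes lay above 0, with medians of 0.34 and 0.46. Tdo2 had 588, 641 and 1014 CPM with SCL, against 598, 509 and 263 CPM on the high-fat diet (0.71, SE 0.38). Hpd had 1885, 1248 and 3207 CPM with SCL, against 1274, 1551 and 1130.3 CPM on the high-fat diet (0.68, SE 0.41). For both genes SCL-treated replicate 3 was the highest of the 6 libraries and the groups overlapped. Of the negative members, the smallest p belonged to Uroc1, the urocanase of histidine breakdown, which had 273, 166 and 261 CPM with SCL against 372, 262 and 196 CPM on the high-fat diet (-0.25, SE 0.32). Got1, the cytosolic aspartate aminotransferase, had 131, 208 and 131 CPM with SCL and 131, 294 and 152 CPM on the high-fat diet (-0.29, SE 0.39). Mccc1, a subunit of a carboxylase of leucine breakdown, had 32.3, 19.7 and 34.3 CPM with SCL and 37.5, 30.8 and 22.7 CPM on the high-fat diet (-0.08, SE 0.29). The direction of all 3 turned when 1 library was left out.

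The third comparison set SCL-treated livers against the normal diet. No member passed, where 0.0083% of genes tested did, and the lowest adjusted p was 0.665. The median over members was 0.07, beside 0.03 for all genes tested. It was -0.02 without SCL-treated replicate 1, -0.14 without SCL-treated replicate 3, and -0.15 with library totals as the only scaling, where that of all genes tested was -0.21. Members above 0 numbered 22 and those below 16, where 51.8% of all genes tested lay above and 48.2% below. An unadjusted edgeR p under 0.05 was met by Oat and Hgd, both higher, and by Aass and Acmsd, both lower; of all genes tested 6.88% met it, 3.32% upward and 3.55% downward. DESeq2 and limma-voom called 0 members. In DESeq2 an unadjusted p under 0.05 was met by 5 members, 2 higher and 3 lower. Of all genes tested 9.58% met it, 555 being higher and 599 lower. In limma-voom 11 members met it, 7 higher and 4 lower, where 28.1% of all genes tested did, 1570 higher and 1819 lower. The limma-voom count was again near the background with both directions pooled.

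Hgd had 286, 332 and 377 CPM with SCL, each above the 179, 199 and 240.0 CPM of the normal diet (0.69, SE 0.27, edgeR adjusted p = 0.665). Fah, the last enzyme of tyrosine breakdown, had 486, 500.1 and 683 CPM with SCL and 341, 369 and 477 CPM on the normal diet, again without overlap (0.49, SE 0.30). Otc had 424, 341 and 627 CPM with SCL, each above the 298, 324 and 242 CPM of the normal diet (0.69, SE 0.37). Sds, with 178, 347 and 147 CPM with SCL and 84.9, 139 and 65.4 CPM on the normal diet, did not overlap either (1.22, SE 0.72). With Oat, these were the 5 members without overlap and higher, where 15.3% of all genes tested did not overlap, 7.47% being higher.

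Mat1a and Acmsd were the 2 members without overlap and lower, where 7.81% of genes tested did so. Mat1a had 1819, 2049.7 and 1913 CPM with SCL, against 2687, 3196 and 2269.6 CPM on the normal diet (-0.50, SE 0.32, edgeR adjusted p = 0.674). SCL-treated libraries lay close to the high-fat diet ones for this gene (0.11, SE 0.32 against the high-fat diet). Acmsd had 27, 1 and 34 counts with SCL and 139, 401 and 51 on the normal diet (-2.82, SE 1.16). Aass had 75.7, 30.5 and 106 CPM with SCL and 211, 405 and 99.2 CPM on the normal diet (-1.75, SE 0.61, edgeR adjusted p = 0.665), with SCL-treated replicate 3 above normal diet replicate 3.

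For 12 further members, values for high-fat against normal diet ran between -0.46 (Gpt, alanine aminotransferase) and 0.19 (Bckdhb, a partner of Bckdha). Those for SCL against the high-fat diet ran between 0.0093 (Kynu, the kynureninase) and 0.51 (Haao, of tryptophan breakdown), and those for SCL against the normal diet between -0.33 (Kynu) and 0.55 (Bckdhb). The others were Nags, which makes the activator of Cps1, Got2, the mitochondrial aspartate aminotransferase, Tat, the tyrosine aminotransferase, Agxt, the alanine-glyoxylate aminotransferase, Kmo of tryptophan breakdown, Dbt and Mccc2 of branched-chain breakdown, and Ivd, which oxidises isovaleryl-CoA from leucine. None of the 12 separated any pair of groups. Of the abundant members not yet set side by side, Bhmt had 1925, 1469 and 2294 CPM with SCL, 2294, 2275 and 1147 CPM on the high-fat diet and 1159, 3680 and 1854 CPM on the normal diet, and it was highest in normal diet replicate 2. Ftcd had 516, 340.0 and 525 CPM with SCL, 432, 448 and 414 CPM on the high-fat diet and 333, 506 and 491 CPM on the normal diet. Bckdha had 187, 99.4 and 203 CPM with SCL, 156, 167 and 130.5 CPM on the high-fat diet and 129, 160.5 and 161 CPM on the normal diet, so that for all 3 genes the groups overlapped.

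**Figure D4:**
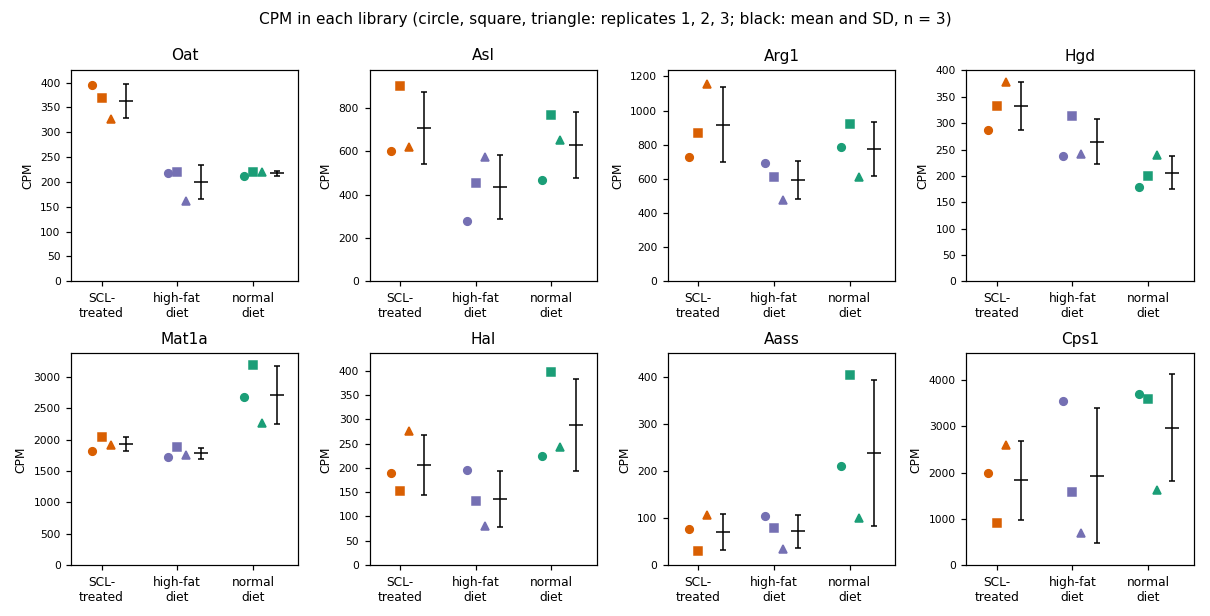
CPM (y axes, from 0) of 8 genes in SCL-treated, high-fat diet and normal diet livers, with a marker for each replicate and the mean and SD (n = 3) in black. Oat shows the SCL-treated libraries at 327 to 394 CPM above all others, Mat1a shows the normal diet libraries above the rest, and Cps1 shows the wide spread within each group.

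The sequences before 3 start sites are shown: Oat, with the smallest p in both SCL comparisons among higher members, Mat1a, whose normal diet libraries lay above all others, and Aass, with the smallest p against the normal diet. They are the 200 bases upstream of the RefSeq start in assembly GRCr8, read 5′ to 3′ on the gene's strand; 33 of the 41 listed genes had an entry, 30 of them a single entry. Capitals mark any of 4 motifs, searched on both strands. They are TATAAA (the TATA box), CCAAT (the CCAAT box), TGACG (part of the cAMP response element) and TGTTCT (part of the glucocorticoid response element). No match overlaps another. The Oat window is chr1:196797755-196797954, minus strand, that of Mat1a chr16:17016968-17017167, plus strand, and that of Aass chr4:52628812-52629011, minus strand.
Oat: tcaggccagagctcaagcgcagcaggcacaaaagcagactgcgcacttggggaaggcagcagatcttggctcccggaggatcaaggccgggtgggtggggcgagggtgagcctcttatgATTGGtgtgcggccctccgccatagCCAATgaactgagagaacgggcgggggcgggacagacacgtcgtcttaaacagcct
Mat1a: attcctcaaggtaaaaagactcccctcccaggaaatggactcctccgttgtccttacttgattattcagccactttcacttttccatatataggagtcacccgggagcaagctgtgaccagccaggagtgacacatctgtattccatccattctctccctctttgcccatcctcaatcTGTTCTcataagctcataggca
Aass: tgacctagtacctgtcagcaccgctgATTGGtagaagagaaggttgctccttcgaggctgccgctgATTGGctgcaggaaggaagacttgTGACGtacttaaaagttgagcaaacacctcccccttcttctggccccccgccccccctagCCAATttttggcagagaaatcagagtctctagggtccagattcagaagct
CCAAT was found in the windows of Oat and Aass, in 17 of the 30 members' windows (56.7%) and in 29.2% of all 33469 windows of the table. TGACG was found in the Aass window, in 1 of 30 members' windows (3.33%) and in 15.9% of all windows. TGTTCT was found in the Mat1a window, in 3 of 30 members' windows and in 14.2% of all windows. TATAAA was in none of the windows printed, in 3 of 30 members' windows and in 10.4% of all windows. A match describes letters only, and no binding was measured in these samples.

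Members also varied within groups. The highest library stood at a median of 1.77 times the lowest with SCL, 1.997 times on the high-fat diet and 1.40 times on the normal diet, beside 1.87, 2.02 and 1.55 times over all genes tested. The most even members were Agxt with SCL (1.06-fold), Ftcd on the high-fat diet (1.08-fold) and Oat on the normal diet (1.04-fold). Acmsd was the most variable member in every group, at 30.7-fold, 26.0-fold and 6.27-fold.

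SCL-treated replicate 2 was the lowest of its group for 26 of 38 members (68.4%), where it was the lowest for 42.2% of all genes tested. High-fat diet replicate 3 was the lowest of its group for 29 of 38 members (76.3%), against 32.02% of all genes tested. These are the libraries with 49.0% and 44.1% mitochondrial reads and the lowest summed hepatocyte markers. Their own summed urea cycle CPM was 3659.6 and 2578, against 5566 and 6820.4 in the other SCL-treated libraries and 6417 and 4485 in the other high-fat diet libraries. Some members went the other way. Asl, Got1, Tat, Sds, Agxt and Mat1a were highest in SCL-treated replicate 2, and Asl, Kynu and Cbs were highest in high-fat diet replicate 3. Normal diet replicate 2 was the highest of its group for 27 of 38 members (71.1%), against 24.8% of all genes tested.

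**Figure D5:**
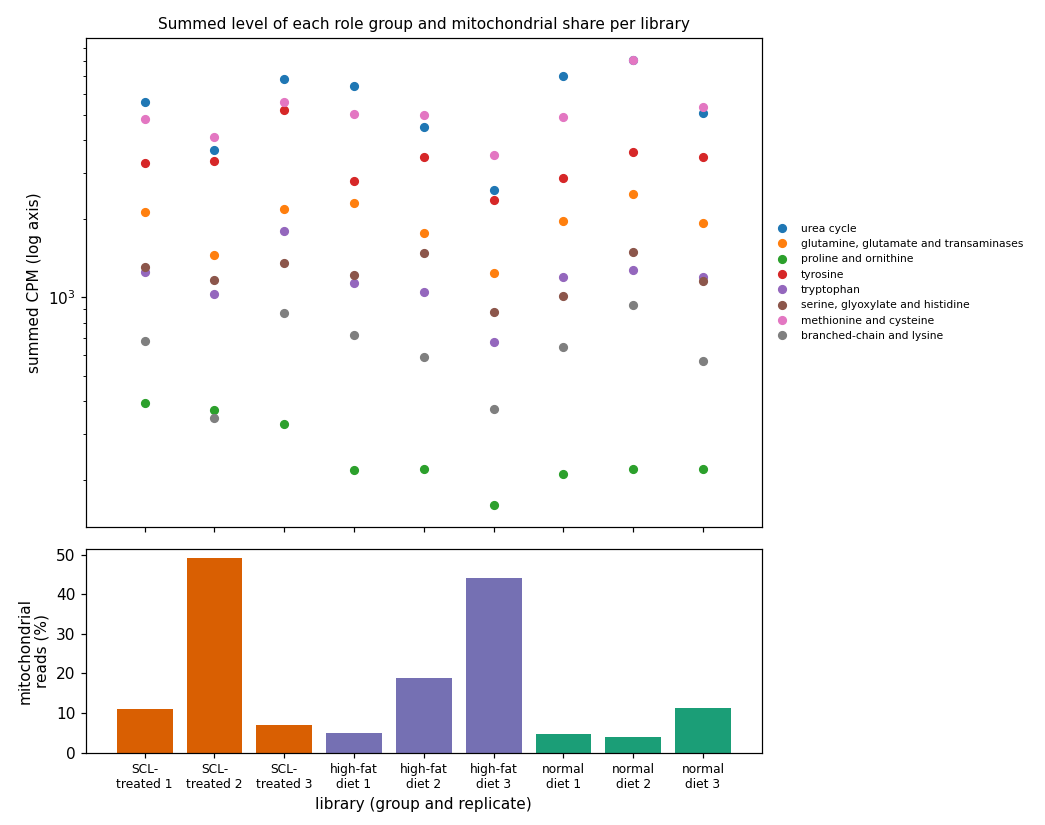
Summed CPM of the tested genes of each role (upper y axis, log scale) and the percentage of reads from the mitochondrial genome (lower y axis) in each of the 9 libraries (x axis). In high-fat diet replicate 3 and SCL-treated replicate 2, at 44.1% and 49.0% mitochondrial reads, the urea cycle sum is the lowest of its group.

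The members' median against the normal diet depended on high-fat diet replicate 3. Without that library, as given above, it was near 0 for high-fat against normal diet. With SCL-treated replicate 2 left out as well it was -0.0012, and with the log2 mitochondrial share as a covariate 0.0053. Mat1a stood at -0.60 without both libraries and at -0.59 with the covariate, against -0.61 in the full fit. Aass stood at -1.40 without both libraries and at -0.76 with the covariate, against -1.74, and Hal at -0.82 and -0.68, against -1.09. In the comparison of SCL-treated with high-fat diet livers the median was 0.07 without high-fat diet replicate 3, 0.05 without SCL-treated replicate 3, 0.43 without SCL-treated replicate 2 and 0.44 without high-fat diet replicate 1. The part of the mitochondrial share in these values was not tested beyond these fits.

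The neighbours of the pathway were described from 3 further lists, whose genes were chosen with earlier results of these data known. Of 60 tested further enzymes of amino acid breakdown, 0 passed edgeR in any comparison, and the medians were 0.04 for high-fat against normal diet, 0.20 for SCL against the high-fat diet and 0.14 for SCL-treated against normal diet. Ppm1k, the phosphatase that activates the branched-chain keto acid dehydrogenase, had 18.6, 25.7 and 16.9 CPM with SCL, 43.1, 14.4 and 17.2 CPM on the high-fat diet and 55.9, 101 and 24.1 CPM on the normal diet. It stood at -1.27 (SE 0.53) for high-fat against normal diet and at -1.56 (SE 0.54) for SCL-treated against normal diet. Gatm, which makes the precursor of creatine, had 22.1, 23.0 and 20.5 CPM with SCL, above each library of the high-fat diet (14.1, 11.8 and 19.8 CPM) and of the normal diet (15.2, 11.9 and 11.6 CPM). It stood at 0.53 (SE 0.27) and 0.77 (SE 0.27) against them. Hibch, of valine breakdown, was higher in all 3 high-fat diet libraries than in the normal diet ones (0.50, SE 0.23), and Mtr, methionine synthase, stood at -1.01 (SE 0.47) for SCL-treated against high-fat diet.

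Of 18 amino acid transporters and mitochondrial carriers, 0 passed, with medians of -0.43, 0.30 and -0.23 in the same order of comparisons. For high-fat against normal diet 16 of the 18 lay below 0. Slc7a2, a carrier of cationic amino acids such as arginine, had 23.2, 10.7 and 21.8 CPM with SCL, 175, 7.85 and 5.99 CPM on the high-fat diet and 174, 132 and 14.4 CPM on the normal diet. High-fat diet replicate 1 and normal diet replicates 1 and 2 were high and the other 6 libraries low. It stood at -1.77 (SE 1.18) for SCL against the high-fat diet, and at 1.43 there without high-fat diet replicate 1. Slc6a13 (-0.57, SE 0.32) and the glutamate transporter Slc1a2 (0.45, SE 0.34) were named for high-fat against normal diet, Slc7a5, a carrier of large neutral amino acids, for SCL-treated against high-fat diet (0.71, SE 0.43), and the mitochondrial ornithine carrier Slc25a15 for SCL-treated against normal diet (0.42, SE 0.36).

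Of 18 regulators, 0 passed, with medians of 0.0039, -0.17 and -0.22. Ppargc1a, a coactivator of fasting metabolism, had 0.63, 0.63 and 0.17 CPM on the high-fat diet, against 4.39, 3.46 and 0.80 CPM on the normal diet (-2.55, SE 0.97). Like those of Acmsd, its values rested on few reads, with 1.02, 0 and 0.61 CPM with SCL. Sirt5, which removes succinyl groups from Cps1, was higher in each high-fat diet library than in any normal diet one (0.66, SE 0.28). The forkhead factor Foxo1 stood at -2.11 (SE 0.92) for SCL-treated against high-fat diet, with 2.31, 1.26 and 3.16 CPM against 23.4, 2.04 and 3.56 CPM, so that high-fat diet replicate 1 was the high library. Onecut1, a hepatocyte transcription factor, stood at -2.90 (SE 0.97) for SCL-treated against normal diet, with 11.02, 0.68 and 2.02 CPM against 45.7, 53.8 and 4.70 CPM. Klf15, a regulator of amino acid breakdown, had 57.4, 197 and 86.6 CPM with SCL, against 81.9, 70.2 and 59.2 CPM on the high-fat diet (0.69, SE 0.40) and 63.9, 73.6 and 71.4 CPM on the normal diet (0.71, SE 0.40).

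The authors' deposited table of high-fat and normal diet libraries, whose fold changes run as normal over high-fat diet, held 0 of 39 members with an adjusted p under 0.05 and 5 with a p under 0.05 (lowest adjusted p 0.23, Aass). The authors' deposited table of SCL-treated and high-fat diet libraries, which runs as SCL-treated over high-fat diet, held 0 and 1 such member, the 1 being Oat, at a log2 fold change of 0.85. The share of all genes that met these thresholds in the authors' contrasts was not computed. The member counts are therefore not read against a background.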

How the data were processed

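Liver RNA was taken with Trizol and prepared with a NEBNext Ultra kit, per the labels. Each of the 2 tables that the authors deposited holds raw counts, those counts normalized by size factors (a signal), FPKM, and the log2 ratio, p-value and adjusted p-value of the authors' own contrast, per the file headers. DESeq2 (version unstated) and mm9, a mouse build, are names in the submitters' processing notes. Which aligner, counter and strand setting were used is not given in the sources used here. Symbols matched rat RefSeq names for 92.6% of genes, so mm9 was not taken as the build of the counts. Overlapping genes and close copies such as Bhmt and its paralog are uncertain.

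The tables listed 15819 and 15929 genes, 15565 of them shared, with the same high-fat diet counts. No 2 libraries of a group agreed within sampling noise (chi-square per degree of freedom at least 38.5). Tests used edgeR 4.0.16 (R 4.3.3): 9 libraries in a single group-only fit, filterByExpr at a minimum count of 10, TMM, and Benjamini-Hochberg over all genes at 0.05. The SE was obtained from the log2 fold change and the square root of its F. Members, lists and alternatives were chosen with earlier results of these data known. Named members had the 3 smallest p in a direction of a comparison, did not overlap, or led their role in FPKM, and each further list gave 1 gene per direction and comparison. Arg1 in the order of levels, Cps1, Glul, Gls2, Cbs, Gnmt and the 12 members given as a range were named outside that rule, after their values were seen. Alternatives used DESeq2 1.42.0 and limma 3.58.1. The fits were also run on simulated counts with known fold changes. That simulation held no library-wide differences such as those in mitochondrial share, so it does not measure the power of these tests. The floor of 3 counts covers counting error only.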

Additional observations from a re-analysis of the deposited data

How the results depend on the processing

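No member was called in any of the 57 combinations of alternative setting and comparison. Some of these only left out a library of the group not compared. The members' median log2 fold change moved by more than 0.25, the spread used, in 1 of 57: for SCL-treated against normal diet it was 0.35 with the mitochondrial share as covariate. That spread is larger than each median of the full fit (-0.21, 0.22 and 0.07 in the 3 comparisons). A median could thus vanish without counting as moved, and the count does not show that the medians were stable. Leaving out each library in turn gave -0.31 to -0.0030 for high-fat against normal diet, 0.05 to 0.44 for SCL against the high-fat diet and -0.14 to 0.21 for SCL-treated against normal diet. Replicate numbers did not pair the samples (correlations of deviations between -0.45 and 0.65); with the replicate block, 0 members were called and the medians were -0.23, 0.25 and 0.05. Over all genes edgeR called 1, 0 and 1 genes in the 3 comparisons, DESeq2 50, 1 and 40, and limma-voom 26, 0 and 152. Of the values of named genes under alternatives, 765 kept direction and call, 13 reversed, and 1 became a call, that of Ppm1k (-1.98 for SCL-treated against normal diet in limma-voom). The values reversed with limma-voom were those of Uroc1 (0.046), Mccc1 (0.14) and Slc7a2 (0.92) for SCL against the high-fat diet, and Slc25a15 (-0.028) for SCL-treated against normal diet. Without the 2 libraries of highest mitochondrial share, Klf15 stood at -0.085 against the high-fat diet and Slc25a15 at -0.043. Leaving out 1 library gave ranges that crossed 0 for Sds (-0.25 to 1.64, high-fat against normal diet), Uroc1 (-0.45 to 0.032), Got1 (-0.55 to 0.15), Mccc1 (-0.25 to 0.14) and Slc7a2 (-2.32 to 1.43) against the high-fat diet, and Slc25a15 (-0.034 to 0.63, SCL-treated against normal diet). The causes were not tested.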
